A study of Mus musculus with 6 samples.

Results

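Chemokines and their receptors were examined in mouse retina with and without Nxnl2, which encodes a thioredoxin-like protein of photoreceptors. The members are the genes whose array symbol begins with Ccl, Cxcl, Ccr or Cxcr and a digit, or with Ccrl, and the genes Cx3cl1 and Xcl1. Only probe sets that name exactly 1 gene were taken, and of several for a gene the one brightest on average over the 6 arrays stood for it. This gave 49 members of 18193 measured genes, of which 33 are ligands and 16 are receptors. The members have 76 probe sets in all, and every member matched the RefSeq gene table of assembly GRCm38.p6.

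The knockout arrays carried RNA of homozygous Nxnl2 knockout retina (ko/ko) and the wild-type arrays RNA of wt/wt retina. All animals were of the strain BALB/c AJ, an albino background, and were killed at post-natal day 40, and the pigment epithelium was dissected away. Of the 6 arrays, 3 are labelled knockout and 3 wild type, and the labels do not say how many animals a sample holds or how the allele was made. The labels also do not say that replicates came from separate animals, so a p-value covers the spread between the samples at hand, and that spread may be technical.

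Nxnl2 lay below the Bacillus controls on knockout replicates 1 and 2 and well above them on the array labelled knockout replicate 3. Its brighter probe set read 3.78 and 3.73 (log2) in knockout replicates 1 and 2, and 9.21 on the array labelled knockout replicate 3. Wild type read 11.42 ± 0.04 (SD, n = 3). Wild type was thus at least 135-fold higher than knockout replicates 1 and 2 (limma adjusted p = 1.1e-09), taking the highest control as the floor. Correlations over probe sets were 0.994 to 0.996 among these 5 arrays and 0.848 to 0.853 between them and the array labelled knockout replicate 3. On that array 9 measured rod markers had a median of -9.59 relative to the wild-type mean, and 11 olfactory and nasal markers one of 7.25 (log2). Knockout therefore means replicates 1 and 2 below, and the third array, whose markers go against the labelled tissue, is given separately. It enters the choice of probe set and an added fit of all 6 arrays, and no other mean or test.

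Chemokines are small secreted or membrane-bound proteins that direct the movement of cells, and are classed by the spacing of their first cysteines into CC, CXC, CX3C and XC ligands. They act on G protein-coupled receptors (Ccr, Cxcr, Cx3cr, Xcr), mostly on leukocytes, and several receptors share ligands. In the healthy retina the best known member is Cx3cl1, or fractalkine, a membrane-anchored ligand of neurons whose receptor Cx3cr1 sits on microglia. Many of the inflammatory ligands are switched on by NF-kB, a transcription factor of the immune response, and are otherwise nearly silent.

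Many chemokine genes gave no signal above background in retina. The level was read against control probe sets for Bacillus transcripts, which match no mouse RNA. Their highest value per array was 4.29 and 4.41 (log2) in knockout, 4.13 on the array labelled knockout replicate 3, and 4.18, 4.60 and 4.18 in wild type. Of the 49 members, 19 (38.8%) lay above it on all 5 retina arrays, where 72% of all genes did. A further 7 passed it on some of the 5 arrays, and 23 (46.9%) lay below it on all 5, where 21.2% of all genes did. By array, 23 and 24 members lay above the control in knockout (75.7% and 75.4% of all genes), 31 on the array labelled knockout replicate 3 (80.4% of all genes), and 26, 19 and 24 in wild type (77.8%, 72.4% and 76.9% of all genes). Probe sets differ in brightness, so these values mark signal over background and do not rank one gene's abundance against another's.

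**Figure D1:**
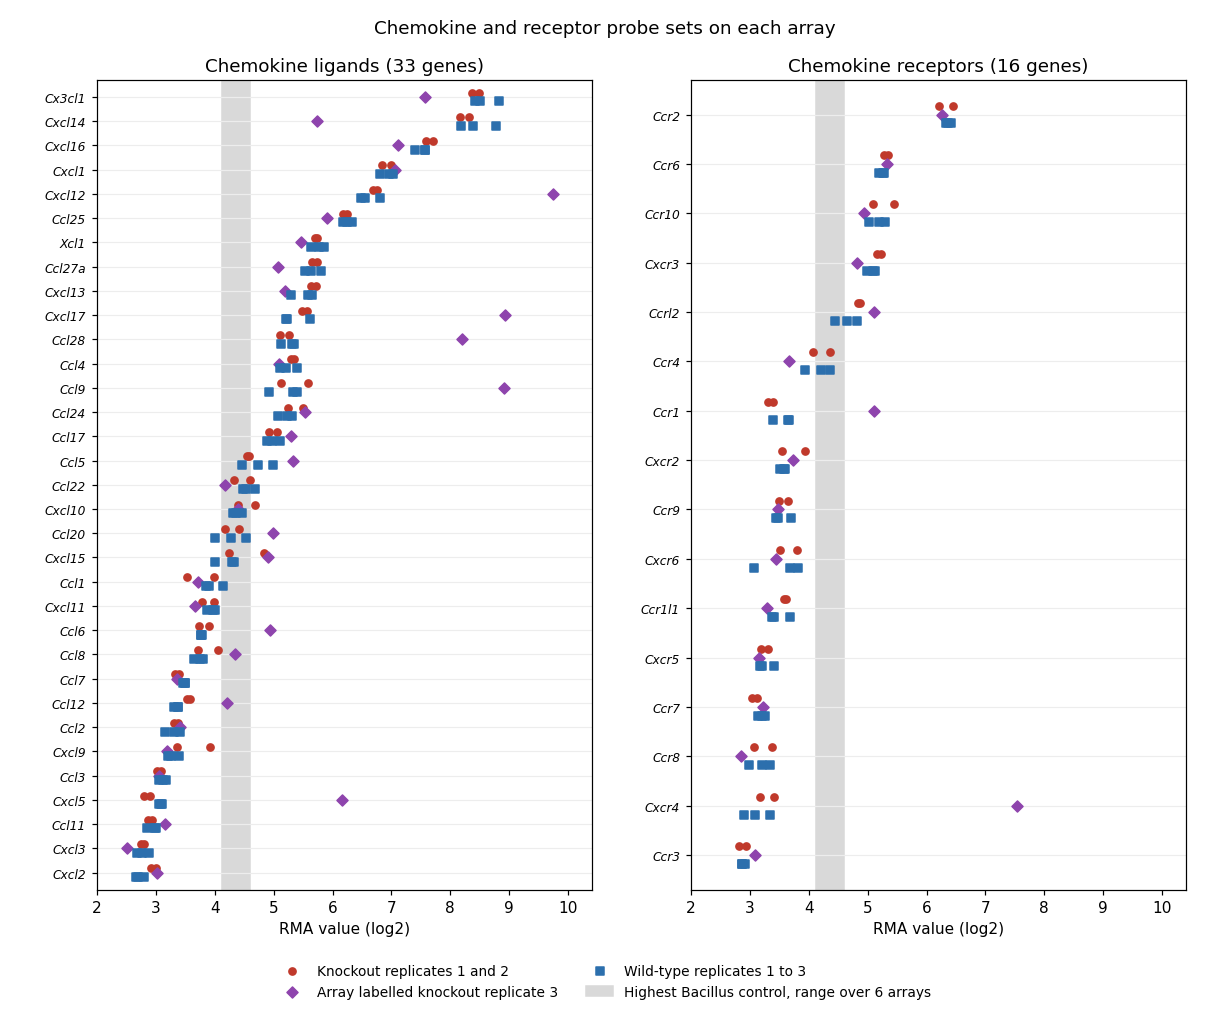
RMA value (log2, horizontal axis) of each of the 33 ligands and 16 receptors on each array, sorted by wild-type mean. Circles are knockout replicates 1 and 2, diamonds the array labelled knockout replicate 3 and squares wild type. The grey band is the range of the highest Bacillus control (4.13 to 4.60). Set against each array's own highest control, 23 members lay below on all 5 retina arrays.

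Promoter sequences were read for 36 members in the RefSeq table of build GRCm38.p6, and are shown for Cx3cl1 and Cxcl14, which had signal in retina, and for the neighbours Cxcl1, Cxcl2 and Cxcl3, which carry the NF-kB motif. The 120 bases before each annotated start are given 5′ to 3′ on the gene's strand. Capitals mark an NF-kB motif, GGGA, any 2 bases and TTCC, or TATAAA, each on either strand, and overlapping matches run together.
Cx3cl1, chr8:94772060-94772179, plus strand: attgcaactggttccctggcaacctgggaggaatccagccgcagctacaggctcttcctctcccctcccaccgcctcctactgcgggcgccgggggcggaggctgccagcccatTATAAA
Cxcl14, chr13:56296552-56296671, minus strand: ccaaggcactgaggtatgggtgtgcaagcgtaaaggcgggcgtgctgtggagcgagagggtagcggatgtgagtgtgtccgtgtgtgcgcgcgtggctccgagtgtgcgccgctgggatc
Cxcl1, chr5:90891125-90891244, plus strand: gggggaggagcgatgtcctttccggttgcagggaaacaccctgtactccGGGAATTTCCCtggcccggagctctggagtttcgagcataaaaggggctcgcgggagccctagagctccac
Cxcl2, chr5:90903779-90903898, plus strand: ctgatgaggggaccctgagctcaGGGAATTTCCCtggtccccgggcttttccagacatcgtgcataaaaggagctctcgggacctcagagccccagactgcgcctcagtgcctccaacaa
Cxcl3, chr5:90785981-90786100, plus strand: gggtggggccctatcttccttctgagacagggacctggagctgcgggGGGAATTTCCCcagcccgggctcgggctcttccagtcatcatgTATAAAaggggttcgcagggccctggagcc

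Over the 250 bases before the start, the NF-kB motif on either strand occurred in 6 of 36 members (16.7%), namely Ccl1, Ccr3, Cxcl1, Cxcl10, Cxcl2 and Cxcl3, and in 1.36% of 27025 genes. Its form with AT as the middle bases, a subset of those matches, occurred in 4 members (11.1%) and in 0.104% of genes. TATAAA occurred in 11 members (30.6%) and 14.3% of genes, TGACTCA in 4 members (11.1%) and 5.16%, and CACGTG in 1 member (2.78%) and 6.86%. A match describes the letters in this window and is not a binding site.

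No chemokine or receptor passed the test between knockout and wild-type retina. By limma with Benjamini-Hochberg adjustment over all genes, 0 of 49 members were called, against 0.011% of all genes (2 of 18193, with 1 higher and 1 lower in knockout, 0.0055% each). At an unadjusted p under 0.05 stood 3 members (6.12%), against 3.45% of all genes. With the array labelled knockout replicate 3 added to knockout, 0 members and 0 genes were called by limma, and 1 member had an unadjusted p under 0.05, against 0.726% of all genes. The median difference of the members, knockout minus wild type, was 0.04 on the log2 scale, against 0.0048 over all genes, and 28 members lay above 0 (57.1%, where 51.9% of all genes did). Single differences ran between -0.23 and 0.35, and the smallest adjusted p of a member was 0.999. The groups were free of overlap for 10 members (20.4%), against 16.5% of all genes. Of these, 6 were higher in knockout (9.19% of all genes) and 4 lower (7.27% of all genes), so the shares of members lay near those of all genes. In bulk tissue fewer cells of a type and less RNA per cell cannot be told apart.

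Fractalkine was well above background in retina and did not differ by the test. Cx3cl1 read 8.48 and 8.37 (log2) in knockout, 7.57 on the array labelled knockout replicate 3, and 8.42, 8.51 and 8.83 in wild type. The groups overlapped, with wild-type replicate 3 the highest of the 5. The difference was -0.16 (SE 0.13, 95% interval -0.46 to 0.13, limma adjusted p = 0.999). Leaving out wild-type replicate 3 gave -0.04. The other probe sets of Cx3cl1 differed by 0.01 to 0.26, the opposite sign. Its receptor Cx3cr1, which the member rule leaves out, averaged 5.10 ± 0.14 in knockout (SD, n = 2), read 5.03 on the array labelled knockout replicate 3, and averaged 4.94 ± 0.11 in wild type (SD, n = 3). That difference was 0.16 (SE 0.11, limma adjusted p = 0.999), with overlapping groups.

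Cxcl14, an epithelial CXC ligand, likewise had overlapping groups. It read 8.16 and 8.32 in knockout, 5.74 on the array labelled knockout replicate 3, and 8.38, 8.19 and 8.78 in wild type. The difference of -0.21 (SE 0.16, 95% interval -0.58 to 0.17, limma adjusted p = 0.999) was the largest in size among the 19 members above the controls on all 5 arrays. Wild-type replicate 3 was again the highest, and leaving it out gave -0.04. The dimmer Cxcl14 probe set differed by -0.25, the same sign.

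Of the other CXC ligands above the controls on all 5 arrays, Cxcl12, Cxcl13, Cxcl16 and Cxcl17 had differences above 0 and Cxcl1 one of -0.02, and none passed the test. Cxcl16, a membrane-anchored ligand of Cxcr6, read 7.58 and 7.71 in knockout, 7.11 on the array labelled knockout replicate 3, and 7.58, 7.58 and 7.40 in wild type. Its groups did not overlap, by a margin smaller than the second decimal. The difference was 0.13 (SE 0.10, 95% interval -0.10 to 0.36, limma adjusted p = 0.999), and that of its other probe set 0.09. Cxcl12, the ligand of Cxcr4 made by stromal and vascular cells, read 6.69 and 6.76 in knockout and 6.48, 6.55 and 6.81 in wild type. It differed by 0.11 (SE 0.12), with overlapping groups. Cxcl13, which draws B cells through Cxcr5, differed by 0.17 (SE 0.12), and Cxcl17, a ligand of mucosal surfaces, by 0.17 (SE 0.13).

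The CC ligands and the XC ligand above background differed by no more than 0.18 on the log2 scale. Of the 18 CC ligands, 7 lay above the controls on all 5 arrays, 3 on some and 8 on none, and 9 had a difference above 0. Ccl25, a thymus and gut ligand of Ccr9, read 6.24 and 6.17 in knockout and 6.24, 6.18 and 6.33 in wild type, a difference of -0.04 (SE 0.10). Ccl24, a ligand of the eosinophil receptor Ccr3, had the largest difference among the 7, at 0.18 (SE 0.12, 95% interval -0.09 to 0.44). The differences were 0.04 for Ccl27a, -0.07 for Ccl28, 0.08 for Ccl4 and 0.14 for Ccl9. The Ccl27a probe set is an x_at design, in which some probes match further genes. Probe sets that name Ccl27a together with its copies differed by -0.13 and -0.08, the opposite sign. Ccl17, a ligand of Ccr4, read 4.92 and 5.05 in knockout and 5.10, 4.98 and 4.88 in wild type, with overlapping groups. Xcl1, the ligand of Xcr1 on dendritic cells, read 5.70 and 5.73 in knockout and 5.85, 5.77 and 5.63 in wild type, a difference of -0.03 (SE 0.10). All groups of these 8 ligands overlapped, and none passed by limma.

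The receptors showed little signal. Of 16, 4 lay above the controls on all 5 arrays, 2 on some and 10 on none. Cxcr3, the receptor of activated T cells for Cxcl9, Cxcl10 and Cxcl11, read 5.16 and 5.23 in knockout, 4.83 on the array labelled knockout replicate 3, and 5.10, 5.12 and 4.99 in wild type. Its groups did not overlap, and the difference was 0.12 (SE 0.09, 95% interval -0.09 to 0.34). Ccr6, the receptor of Ccl20, likewise did not overlap, with 5.34 and 5.28 in knockout and 5.28, 5.26 and 5.19 in wild type (again apart by less than the second decimal), a difference of 0.07 (SE 0.09). Ccr10, which binds Ccl27a and Ccl28, overlapped, and differed by 0.10 (SE 0.13). Ccrl2, an atypical receptor that binds chemerin, read 4.83 and 4.87 in knockout, 5.11 on the array labelled knockout replicate 3, and 4.82, 4.44 and 4.64 in wild type. It lay above the control on 4 of the 5 arrays and did not overlap, with a difference of 0.22 (SE 0.12, 95% interval -0.06 to 0.49). None of these receptors passed (limma adjusted p = 0.999). Cxcl16, Cxcr3, Ccr6 and Ccrl2 were the 4 of the 10 members without overlap whose mean lay above the controls.

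**Figure D2:**
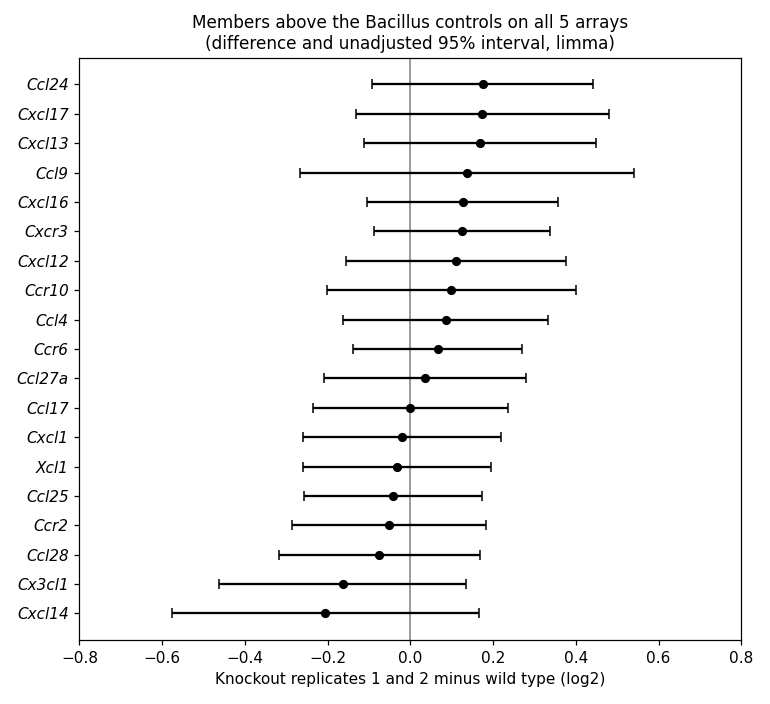
Difference of knockout replicates 1 and 2 minus wild type (log2, horizontal axis) for the 19 members above the Bacillus controls on all 5 arrays, with unadjusted 95% intervals from limma as bars. Every interval holds 0, and the ends run from -0.58 (Cxcl14) to 0.54 (Ccl9).

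The 3 members with an unadjusted p under 0.05 all lay below the Bacillus controls on the 5 retina arrays. Cxcl2, a neutrophil attractant acting on Cxcr2, read 3.01 and 2.93 in knockout and 2.70, 2.67 and 2.80 in wild type (difference 0.25, SE 0.09, limma adjusted p = 0.999). Cxcl5, another ligand of Cxcr2, read 2.91 and 2.80 in knockout and 3.10, 3.10 and 3.06 in wild type (difference -0.23, SE 0.09, limma adjusted p = 0.999). Ccl12, a monocyte attractant acting on Ccr2, read 3.54 and 3.59 in knockout and 3.39, 3.38 and 3.30 in wild type (difference 0.21, SE 0.09, limma adjusted p = 0.999). These values cannot be told from background, so they show no direction of expression. Ccr1, Ccr7 and Ccl7 also had groups without overlap, all lower in knockout and all below the controls. The other Ccr1 probe set differed by 0.26, the opposite sign, and also lay below the controls. Cxcl9, an interferon-induced ligand of Cxcr3, had the largest difference of all members, 0.35 (SE 0.16), with 3.36 and 3.92 in knockout and 3.27, 3.39 and 3.21 in wild type. Its groups overlapped, every value lay below the controls, and its other probe set differed by 0.02.

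The monocyte-recruiting pair Ccl2 and Ccr2 gave no readable change. Ccl2 read 3.38 and 3.31 in knockout and 3.31, 3.41 and 3.15 in wild type, below the controls on all 5 arrays. The probe set used for Ccr2 read 6.21 and 6.44 in knockout and 6.42, 6.37 and 6.34 in wild type (difference -0.05, SE 0.10). The 3 other Ccr2 probe sets read between 2.71 and 3.56 over all 6 arrays, below the controls throughout. Only 1 of 4 Ccr2 probe sets thus showed a signal, so the presence of the Ccr2 transcript is uncertain here.

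The remaining members near or below background are accounted for together. Ccl5, Ccl20, Ccl22, Cxcl10, Cxcl15 and Ccr4 lay above the controls on some of the 5 arrays, with differences between -0.17 for Ccl5 and 0.33 for Cxcl15, which draws neutrophils to the lung. The Cxcl15 difference came from knockout replicate 2, with 4.25 and 4.83 in knockout and 4.29, 4.33 and 4.01 in wild type. Besides Ccl2, Ccl7, Cxcl2, Cxcl9 and Ccr7, the members below the controls on all 6 arrays were Ccl1, Ccl3, Ccl11, Cxcl3, Cxcl11, Ccr1l1, Ccr3, Ccr8, Ccr9, Cxcr2, Cxcr5 and Cxcr6. Those 17 members read between 2.74 and 3.99 in knockout, 2.51 and 3.73 on the array labelled knockout replicate 3, and 2.67 and 4.14 in wild type.

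Several chemokine genes lie side by side in the genome, in 5 runs of 3 or more members. Whether members without signal lie together more often than others was not tested. Of the 49 members, 14 lie on chromosome 11, 10 on chromosome 5 and 10 on chromosome 9. With at most 10 protein-coding genes from one member to the next, Ccl2, Ccl7, Ccl11, Ccl12, Ccl8 and Ccl1 form a run on chromosome 11, and 6 of 6 lay below the controls on all 5 retina arrays. Another run on chromosome 11 holds Ccl5, Ccl9, Ccl6, Ccl3 and Ccl4, of which 2 of 5 lay below on all 5 arrays and 2 above on all 5. A run of receptors on chromosome 9 holds Ccr9, Cxcr6, Ccr1, Ccr1l1, Ccr3 and Ccr2, of which 5 of 6 lay below. The run Cxcl5, Cxcl3, Cxcl15, Cxcl1 and Cxcl2 on chromosome 5 had 3 of 5 below. On chromosome 8, Ccl22, Cx3cl1 and Ccl17 form a run in which 0 of 3 lay below on all 5 arrays.

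Of the neutrophil-attracting ligands whose promoters are printed above, Cxcl2 and Cxcl3 had no signal in retina, and Cxcl1 was ambiguous. Cxcl2 and Cxcl3 lay below the controls on all 6 arrays. The probe set used for Cxcl1 read 6.84 and 6.99 in knockout, 7.06 on the array labelled knockout replicate 3, and 7.03, 6.81 and 6.96 in wild type, a difference of -0.02 (SE 0.10). Another probe set of Cxcl1 read between 2.88 and 3.91 over the 6 arrays, below the controls, and the remaining one between 6.32 and 6.93. The probe set used is an x_at design, in which some probes match further genes, so the presence of the Cxcl1 transcript is uncertain here.

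Disagreement among probe sets was common. Of the 49 members, 32 had 1 probe set and 17 had 2 to 5. For 6 of those 17 (Ccl28, Ccl9, Ccr2, Cx3cl1, Cxcl1 and Cxcl12) the probe set used lay above the controls on all 5 arrays while another lay below them on all 5. For 8 of the 17 at least 1 other probe set had a knockout difference of the opposite sign. Tested singly over all probe sets, 0 of the 76 member probe sets were called. At an unadjusted limma p under 0.05 stood 3 of the 76, against 1375 of all 45037 probe sets. They were those used for Cxcl2 and Cxcl5 and the dimmer one of Ccr1, all below the controls on the 5 retina arrays. That Ccr1 probe set differed by 0.26, where the one used for Ccr1 differed by -0.22.

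**Figure D3:**
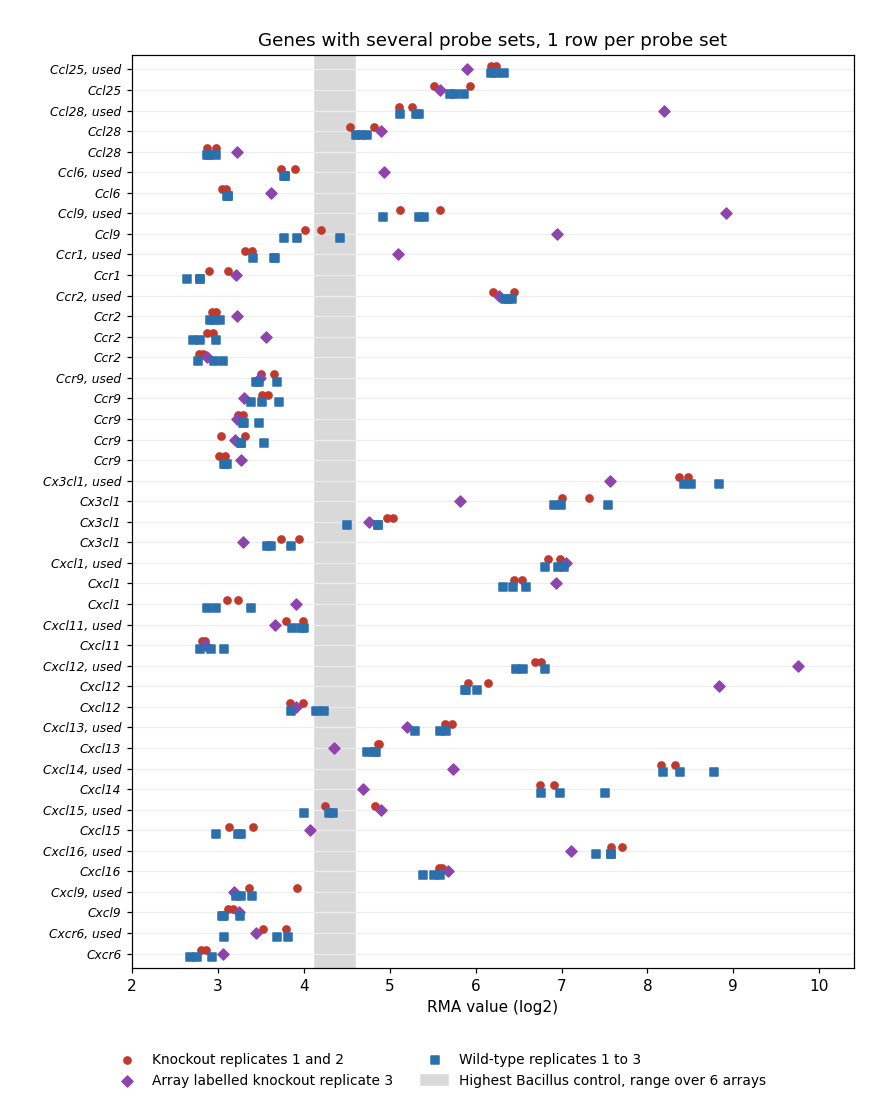
RMA value (log2, horizontal axis) of each probe set of the 17 members with more than 1, a row per probe set, with the probe set used for the gene marked. Symbols and grey band show knockout, the array labelled knockout replicate 3, wild type and the Bacillus controls; 3 of 4 Ccr2 probe sets lie left of the band, and 1 of 3 Cxcl12 probe sets lies at its left edge while the others lie right of it.

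Genes that act beside the members likewise gave no call. Among 15 other chemokine-system genes, 0 were called in either direction, with a median difference of 0.03. Cmtm3, a chemokine-like transmembrane gene, had the smallest p, with 4.79 and 4.34 in knockout and 4.26, 4.28 and 4.13 in wild type (difference 0.34, SE 0.14, limma adjusted p = 0.999). Cmtm3 passed the controls on only 2 of the 5 arrays. Ackr3, the scavenging receptor for Cxcl12, read 5.31 and 4.91 in knockout, 8.72 on the array labelled knockout replicate 3, and 5.31, 5.93 and 5.33 in wild type (difference -0.41, SE 0.20, adjusted p = 0.999 by limma). Of 27 measured receptor signalling genes 0 were called, and the Src-family kinase gene Fgr had the smallest p (difference 0.26, SE 0.11, limma adjusted p = 0.999). Of 26 measured inducers and transcription factors 0 were called. At an unadjusted limma p under 0.05 stood 1 of 15 chemokine-system genes, 1 of 27 signalling genes and 2 of 26 inducers, against 3.45% of all genes. Those 2 inducers were the innate receptor gene Tlr2 (0.26, SE 0.10) and Lta (0.22, SE 0.09), which passed the controls on 1 of 5 arrays. Tlr2, Lta, Myd88 (0.25, SE 0.11), Irf1 (0.16) and Relb (0.17) had groups without overlap with higher values in knockout, as had 9.19% of all genes. No inducer had groups without overlap with lower values. Relb lay below the controls on all 5 arrays, and none of these inducers passed (limma adjusted p = 0.999). Of the inducers 13 of 26 had a difference above 0. Among the signalling genes, Prex1 (-0.15), Arrb2 (-0.16), Gnb2 (-0.15) and Arrb1 (-0.13) had groups without overlap with lower values in knockout, as had 7.27% of all genes. Fgr and Rgs1 (0.14, below the controls on all 5 arrays) had groups without overlap with higher values, as had 9.19% of all genes. None of these signalling genes passed either.

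Microglia and macrophage markers, which mark the main cells that carry these receptors in retina, stood higher on knockout replicate 1. Of 15 measured markers, 12 lay above the controls on all 5 arrays and 11 had a difference above 0. Their mean level was 5.78 and 5.55 (log2) in knockout, 6.47 on the array labelled knockout replicate 3, and 5.52, 5.51 and 5.46 in wild type. The complement gene C1qb had the smallest p of the list and did not overlap (difference 0.50, SE 0.11, limma adjusted p = 0.999). It was followed by Tyrobp (0.35), C1qc (0.48) and Csf1r (0.28), an adaptor, a complement subunit and a growth factor receptor of these cells. Tyrobp and C1qc also did not overlap, while Csf1r did. The markers without overlap were all higher in knockout, where 9.19% of all genes had no overlap and higher values. At an unadjusted limma p under 0.05 stood 3 of 15 markers, against 3.45% of all genes. The differences of Tmem119 (-0.12), Adgre1 (-0.09), Itgam (-0.06) and Siglech (-0.03) lay below 0, and P2ry12 stood at 0.08. T and NK cell markers had a mean level of 4.34 and 4.35 in knockout and 4.31 to 4.39 in wild type, with 3 of 11 above the controls on all 5 arrays. Neutrophil markers averaged 4.18 and 4.30 in knockout and 4.08 to 4.26 in wild type, with 1 of 7 above the controls on all 5. Muscle markers (6.87 on knockout replicate 2, 4.86 to 5.25 on the other 4 retina arrays) and lens markers (9.02 on wild-type replicate 2, 6.50 to 6.74 on the other 4) set single arrays apart. Pigment epithelium markers averaged 7.73 and 8.27 in knockout and 8.29, 8.92 and 8.13 in wild type, with 9 of 9 above the controls on all 5 arrays. These markers thus had signal in samples whose pigment epithelium was described as dissected away. Rlbp1 among them is also a marker of the Mueller glia of the retina, so its signal is not particular to pigment epithelium. Of the 9, 0 had a difference above 0, where 51.9% of all genes did, and their median difference was -0.51. The groups overlapped for all of them but Tyr, and the mean level of knockout replicate 2 lay within the wild-type range. Markers of a shared tissue can move together, so they do not count as separate observations. The part of these cells in the chemokine values was not tested.

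The array labelled knockout replicate 3 differed from wild type in 10 members by more than 1 log2 unit. Relative to the wild-type mean, 8 lay higher (16.3%, where 15.8% of all genes did) and 2 lay lower (4.08%, where 11.5% of all genes did). By more than 2 log2 units, 6 lay higher (12.2%, against 7.41% of all genes) and 1 lower (2.04%, against 4.56%). These counts use the measured values. Of the 8 higher members, Cxcr4, Cxcl5, Ccr1 and Ccl6 lay below the controls in wild type, so their differences are not exact and only the bounds below hold. With 1 array of its kind there is no replicate check and no test was run, and the other 39 members lay within 1 log2 unit.

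Cxcl12 and both of its receptors were high on that array. Cxcr4, the Cxcl12 receptor of leukocytes and progenitor cells, read 7.53 there, 3.42 and 3.18 in knockout replicates 1 and 2, and 2.90, 3.34 and 3.09 in wild type. Since Cxcr4 lay below the controls in wild type, it was at least 9.29-fold higher on that array than in wild type. Cxcl12 read 9.75 there, a difference of 3.14, and its second probe set read 8.83 there against 5.87 to 6.01 in wild type. The dimmest Cxcl12 probe set read 3.91 there, below the control. Ackr3 lay 3.20 above the wild-type mean.

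Cxcl17, Ccl28, Ccl9 and Cxcl5 also lay above the control and above wild type there. Cxcl17 read 8.93 on the array labelled knockout replicate 3 against 5.62, 5.23 and 5.21 in wild type, a difference of 3.58. Ccl28, a ligand of secretory epithelium, read 8.19 there against 5.31, 5.34 and 5.12 in wild type (difference 2.93). Its other probe sets read 4.90 and 3.22 there, against wild-type means of 4.67 and 2.91 (differences 0.23 and 0.30). The large Ccl28 rise was thus seen only in the probe set used. Ccl9, a mouse ligand of Ccr1, read 8.92 there against 5.40, 5.34 and 4.92 in wild type (difference 3.70), and its other probe set differed in the same direction. Cxcl5 read 6.16 there and lay below the controls in wild type, so it was at least 3.60-fold higher. For Ccr1, the shared receptor of Ccl9 and Ccl6, the bound was at least 1.72-fold higher, and for Ccl6 at least 1.53-fold. The other probe sets of Ccr1 and Ccl6 read 3.21 and 3.62 there, below the control. Ccl8 passed the control there by so little that its bound was 1.01-fold, and Ccl12 read 4.21 there, under the mean wild-type control, so no fold is given.

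The 2 members that were lower on that array by more than 1 log2 unit were Cxcl14 and Cx3cl1. Cxcl14 read 5.74 there, a difference of -2.71 from the wild-type mean, and its dimmer probe set read 4.69 against 6.76 to 7.51 in wild type. The Cx3cl1 difference was -1.02, just past the limit. Next on the lower side, inside the limit, stood Ccl27a, a skin ligand of Ccr10, at -0.58, Ccr4, a receptor of helper T cells, at -0.50 and Cxcl16 at -0.41. On the higher side, Ccl20, the ligand of Ccr6, stood at 0.72, with wild-type values on either side of the controls.

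Markers of other cells moved on the same array. Olfactory and nasal epithelium markers averaged 11.86 there, against 4.81 and 4.78 in knockout replicates 1 and 2 and 4.67 to 4.79 in wild type, and 11 of 11 lay above the control. Neutrophil markers averaged 8.45 there, with 7 of 7 above the control, led by S100a8, a calcium-binding protein of neutrophils, at 10.99. Rod markers averaged 3.98 there, against 12.99 and 13.07 in knockout replicates 1 and 2 and 13.10 to 13.18 in wild type. The part of each cell type in the chemokine differences on that array was not tested.

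**Figure D4:**
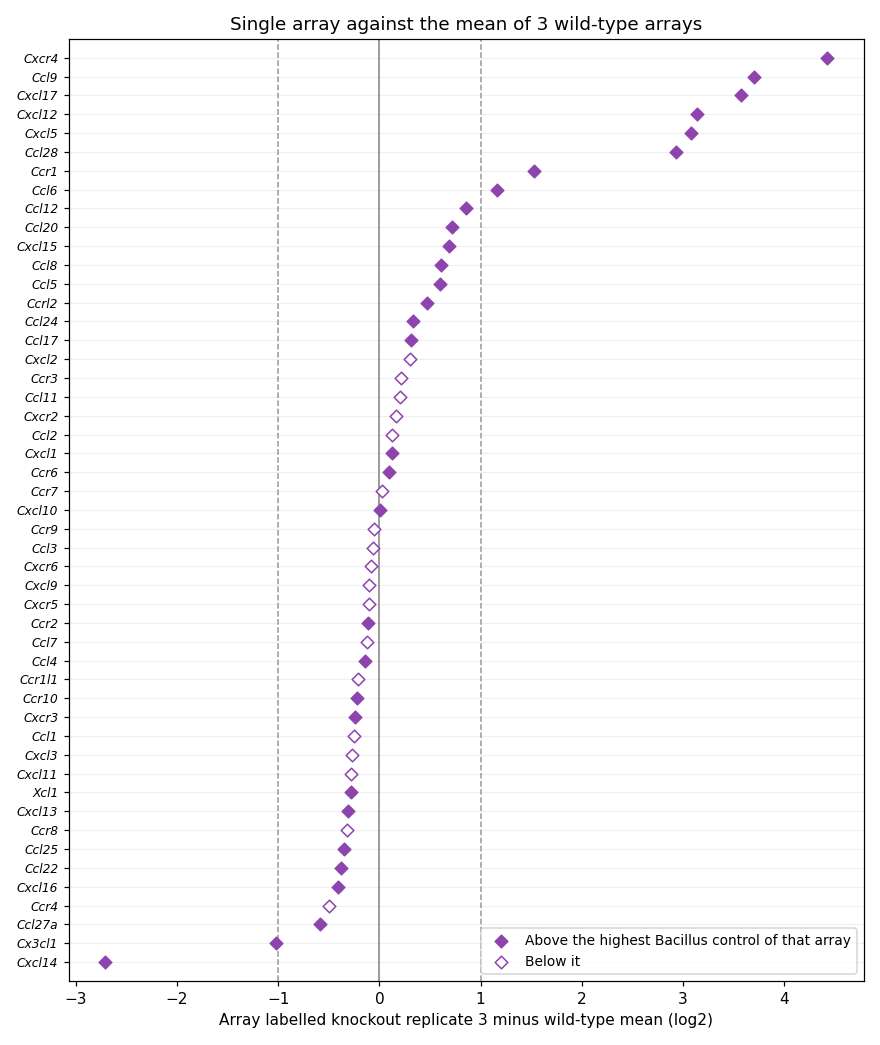
Value on the array labelled knockout replicate 3 minus the mean of 3 wild-type arrays (log2, horizontal axis) for each of the 49 members, sorted by size. Filled diamonds lie above the highest Bacillus control of that array and open ones below; dashed lines mark 1 log2 unit, past which the measured values of 8 members lie on the higher side, 4 of them below the controls in wild type, and those of 2 on the lower.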

How the data were processed

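RNA of 6 retina samples was labelled as biotin cRNA on one-colour Affymetrix arrays, per the labels' protocols. The deposited values are log2 values made by RMA, per the submitters' processing notes. RMA gives arrays nearly the same distribution, which hides a shift in total RNA, and there are no detection calls. The software version and chip definition are not given in the sources used.

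From 45101 probe sets, 64 controls were left out; 34945 named 1 gene by the platform annotation. Knockout and wild type were compared with limma 3.58.1 (lmFit, eBayes) in R 4.3.3, two-sided, adjusted by Benjamini-Hochberg over 18193 genes at 0.05, and the code was tested on simulated data. The 3 against 3 fit of the series text is among the alternatives: array weights, normalization, centring, filters, probe set rules, replicate block and left-out arrays. The highest of 27 Bacillus probe sets per array was the floor. A bound sets the bright value against the mean of that floor. Members, lists, the array set apart and the rule for named genes (signal on all 5 arrays, unadjusted p under 0.05, no overlap, or size on the third array) were chosen with earlier results of these data known. Figures used matplotlib 3.10.9. The number of arrays limits the precision.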

Additional observations from a re-analysis of the deposited data

Results flagged for a closer look

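Signals outside the comparison of 5 arrays, on the array labelled knockout replicate 3, exceeded the wild-type mean by more than 2 log2 units in measured value for 6 members. They were Cxcr4 (4.43), Ccl9 (3.70), Cxcl17 (3.58), Cxcl12 (3.14), Cxcl5 (3.08) and Ccl28 (2.93). Cxcr4 and Cxcl5 lay below the controls in wild type, so these differences are not exact, and the bounds are at least 9.29-fold and at least 3.60-fold higher. For Ccl28 only the probe set used showed the rise, and its other probe sets differed by 0.23 and 0.30. A probe set that names 9 genes, 4 of them copies of Ccl21, a ligand of Ccr7, stood 2.45 above the wild-type mean on the same array. It read 4.54 and 5.13 in knockout replicates 1 and 2, 7.50 on that array, and 5.05, 4.95 and 5.14 in wild type. These single-array differences were not tested, and samples were not tested for outlying values in groups of 3.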

How the results depend on the processing

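No member was called under any alternative, and the smallest adjusted p of a member on the 5 arrays or with 1 left out was 0.526 (Cxcl9 without knockout replicate 1). With all 6 arrays 0 genes were called (132 at an unadjusted p under 0.05), Nxnl2 stood at -5.85 (limma adjusted p = 0.745) and 5 of 49 members had groups without overlap (8.64% of all genes). Members without overlap numbered 4 of 25 among genes above the controls on at least 2 arrays (15.9% of all genes) and 3 of 19 with dim probe sets removed (15.7% of all genes), since fewer members were tested. With the mean of all probe sets 1 gene was called. When 1 of the 5 arrays was left out, 1 to 8 genes were called, 14 to 26 members had groups without overlap (25.7% to 51.2% of all genes) and the median member difference was -0.037 to 0.066; 8 genes came without knockout replicate 1 or 2, 1 gene without wild-type replicate 3, and the negative median without knockout replicate 2. A lone knockout array was assumed to vary like wild type. With the replicate block, in which wild-type replicate 3 has no partner, the median was 0.0047, and 0 members and 3 genes were called. Knockout and wild-type deviations of the same number correlated at -0.07 and 0.08. With 2 knockout arrays the deviations from their mean mirror each other, so these correlations cannot decide whether the numbers pair the samples. The block changed no other call. Against the median Bacillus control, 46 and 44 members had signal in knockout, 48 on the array labelled knockout replicate 3, and 44, 47 and 46 in wild type; against their 95th percentile wild-type replicate 2 had 34. Of 49 members, 23 kept their sign in every alternative on the 5 arrays and 26 did not. On the third array, 1 member lay more than 2 log2 units lower. Values near background limit the 23 members without signal.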

Other observations

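The probe sets that name several genes, at least 1 of them with a symbol that fits the member rule, were left out of the comparisons. A probe set for Ccl19 and its copies, a ligand of Ccr7, read 4.13 and 4.27 in knockout, 4.42 on the array labelled knockout replicate 3, and 4.09, 4.05 and 4.16 in wild type, near the controls. Of 2 probe sets for Ccl27a and its copies, the brighter read 6.12 and 6.30 in knockout, 5.74 on that array, and 6.26, 6.32 and 6.28 in wild type. Ackr1, an endothelial receptor that binds many CC and CXC ligands without signalling, read 10.02 and 10.14 in knockout, 7.63 on that array, and 10.08, 10.03 and 10.22 in wild type (difference -0.03, SE 0.10, limma adjusted p = 0.999). Ackr4, another scavenging receptor, read 7.21 and 7.55 in knockout, 6.94 on that array, and 7.43, 7.50 and 6.90 in wild type. The platelet chemokines Pf4 and Ppbp lay below the controls on the 5 retina arrays and read 6.00 and 5.64 on that array.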
